A study of Drosophila melanogaster with 8 samples.

Results

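The genes described here write or read methylation of lysine 9 of histone H3 (H3K9), or work with the proteins that do. They are the 10 genes Su(var)205, Su(var)3-9, Su(var)3-7, Su(var)2-10, Su(var)2-HP2, egg, wde, G9a, HP1b and HP1c, chosen by name, of 15146 genes in each of a pair of tables. RNA was sequenced from Drosophila melanogaster of the laboratory strain w1118. The first table holds whole F1 embryos at stage 17, the last stage before hatching, whose fathers ate a medium sugar food (30 g/L) or a high sugar food (300 g/L). The other holds sperm of adult males on the same 2 foods. Each of the 4 groups had 2 libraries, made from total RNA depleted of ribosomal RNA. The sources used here do not give the mothers' food, the number of animals per library, or whether a group's libraries were separate crosses. The study's title concerns paternal diet and offspring chromatin, and the tables allow the question whether RNA of the H3K9 and HP1 genes differed with the father's food.

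H3K9 methylation marks heterochromatin, the compact part of the genome around centromeres, on the Y chromosome and over transposons. Methyltransferases place the mark, and heterochromatin protein 1 (HP1) binds it through its chromodomain and draws in further methyltransferase, so that the silent state spreads and is kept through cell division. Many of these genes were found in Drosophila as suppressors of position-effect variegation, the patchy silencing of a gene placed near heterochromatin, and Su(var) in their names stands for this. Several of them act in a dose-dependent way in that assay.

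Each gene has 1 value per group in FPKM, a fragment count divided by transcript length and library size. The authors had combined both libraries of a group, so no spread between libraries stands beside any level, and the depth is unknown. The columns of both tables have the same headers, and the tissue is known from the table's name. Marker genes separated the tables: 15 of 15 spermatid markers averaged 1 FPKM or more in sperm and 2 of 15 in embryos, and 11 of 11 larval cuticle markers did in embryos against 1 of 11 in sperm. The sperm table also held muscle RNA. Of 15 somatic muscle markers, 13 reached 1 FPKM there, with Mhc, the muscle myosin heavy chain, at 313 and 307 FPKM in the medium and high sugar groups. Muscle markers summed to 3766 and 3637 FPKM in sperm, against 752 and 1741 FPKM for the spermatid markers. Levels of the H3K9 and HP1 genes in the sperm table therefore come from a sample with RNA of other tissue, and the part of that tissue in them was not tested.

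All 10 genes had a row in both tables. In the coordinates of the tables (build BDGP5), Su(var)205 (FBgn0003607) lies at 2L 8206206 to 8211133, HP1b (FBgn0030082) on X at 8975096 to 8976391 and HP1c (FBgn0039019) at 3R 18571350 to 18573278. G9a (FBgn0040372) lies on X at 140040 to 148058 and Su(var)3-7 (FBgn0003598) at 3R 9090077 to 9097748. The 4 genes on 2R are Su(var)2-10 (FBgn0003612, 5003631 to 5009507), wde (FBgn0027499, 6687924 to 6696430), Su(var)2-HP2 (FBgn0026427, 10494659 to 10505550) and egg (FBgn0086908, 20663057 to 20667437). None of the 10 lies on the fourth chromosome, which is largely heterochromatic.

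The locus string of 3 of the genes is shared with another row, so it covers both. Su(var)205 shares it with CG8419, which had 0.443 and 0.482 FPKM in embryos of medium and high sugar fathers. Su(var)3-7 shares its locus with CG8449 (5.05 and 4.17 FPKM in embryos), and HP1c with CG17141 (7.43 and 7.55 FPKM in embryos). In the newer BDGP6 annotation these neighbours lie on the opposite strand and overlap the exons of Su(var)3-7 by 693 bases and those of HP1c by 160 bases, which is 13.7% and 16.2% of their exonic length. The exons of egg overlap an antisense RNA by 629 bases there. The library kit keeps the strand per the labels, but the sources used here do not say whether fragments were counted by strand, so the levels of Su(var)3-7, HP1c and egg are less certain.

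The row named Su(var)3-9 cannot be read as that gene alone. Su(var)3-9, the first H3K9 methyltransferase described in the fly, shares its start and its first exons with eIF2gamma, a subunit of the factor that brings the initiator tRNA to the ribosome. The row (FBgn0003600) lies at 3R 11083656 to 11089196, a length of 5541 bases. In BDGP6 eIF2gamma is 5615 bases long and Su(var)3-9 is 3595 bases long, the 5′ ends of both are at the same base, and they share 352 exonic bases. Neither table has a row for eIF2gamma, and the identifier of the Su(var)3-9 row is absent from BDGP6, which has a separate identifier for each gene. The gap from the row to its left neighbour CG42404 is 349 bases, against 78 bases from eIF2gamma and 2098 bases from Su(var)3-9 in BDGP6. The row thus spans eIF2gamma as well. The neighbours and the subunits named next were chosen after their values were seen. The other subunits of the same factor, eIF-2alpha and eIF-2beta, had 72.4 and 133 FPKM in embryos of medium sugar fathers, and the Su(var)3-9 row had 83.6 FPKM. In medium sugar sperm these values were 28.7, 28.3 and 39.3 FPKM. How much of the row belongs to the methyltransferase cannot be told from these values.

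**Figure D1:**
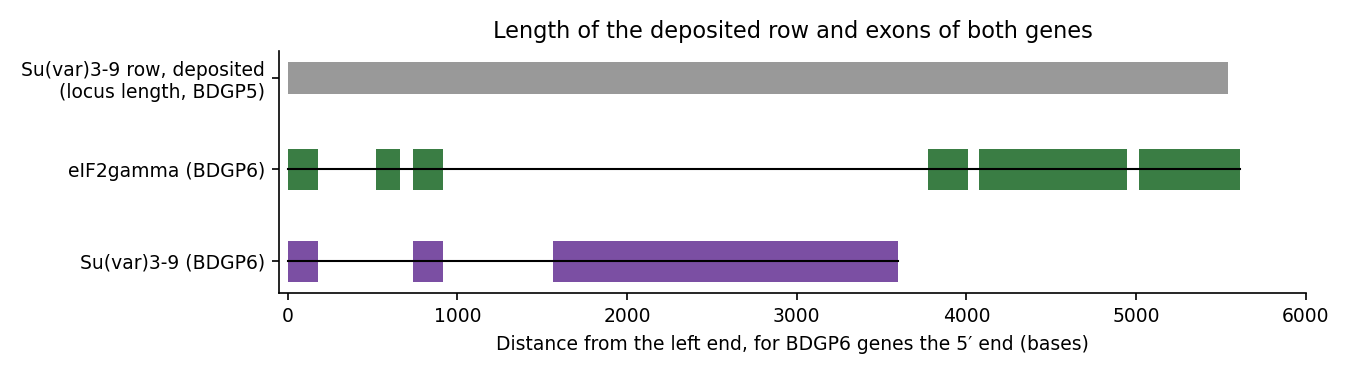
Length in bases of the deposited Su(var)3-9 row (grey, BDGP5) above the exons (boxes) and introns (lines) of eIF2gamma and Su(var)3-9 in BDGP6, drawn from the 5′ end that both genes share. The row, at 5541 bases, has about the length of eIF2gamma (5615 bases) and is longer than Su(var)3-9 (3595 bases).

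In stage 17 embryos Su(var)205 was the most abundant of the 10 rows. This gene encodes HP1a, the founding HP1 protein, and had 95.5 FPKM in embryos of medium sugar fathers and 74.0 FPKM in embryos of high sugar fathers. It lay at percentile 93.7 of the genes above 0 in the medium sugar group. The combined Su(var)3-9 row followed with 83.6 and 77.3 FPKM, and in the high sugar group these rows were in the opposite order. HP1b, a paralog found in both euchromatin and heterochromatin, had 20.8 and 17.2 FPKM, and HP1c, a paralog of euchromatin that works with the zinc finger proteins Woc and Row, had 11.7 and 11.0 FPKM. Between the HP1 paralogs the order HP1a, HP1b, HP1c was the same in all 4 groups.

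The methyltransferases other than the combined row were at lower levels. G9a, which is dispensable for life in the fly, had 12.7 and 11.4 FPKM in embryos, and egg had 3.46 and 2.92 FPKM. egg encodes the fly SETDB1, which methylates H3K9 on the fourth chromosome and at transposons and is needed in the germline. It was the lowest of the 10 in every group. wde, the fly counterpart of ATF7IP and partner of egg, had 15.1 and 16.8 FPKM, above its enzyme in both groups.

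The HP1 partners spanned 4.48 to 18.3 FPKM in embryos. Su(var)2-10, a SUMO ligase that links target recognition to egg and wde in the germline, had 18.3 and 15.3 FPKM. Su(var)2-HP2, a large protein that binds HP1a, had 10.2 and 8.48 FPKM. Su(var)3-7, a zinc finger protein that binds HP1a and satellite DNA, had 5.24 and 4.48 FPKM. With 1 pooled value per group, no order between neighbouring levels can be tested.

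**Figure D2:**
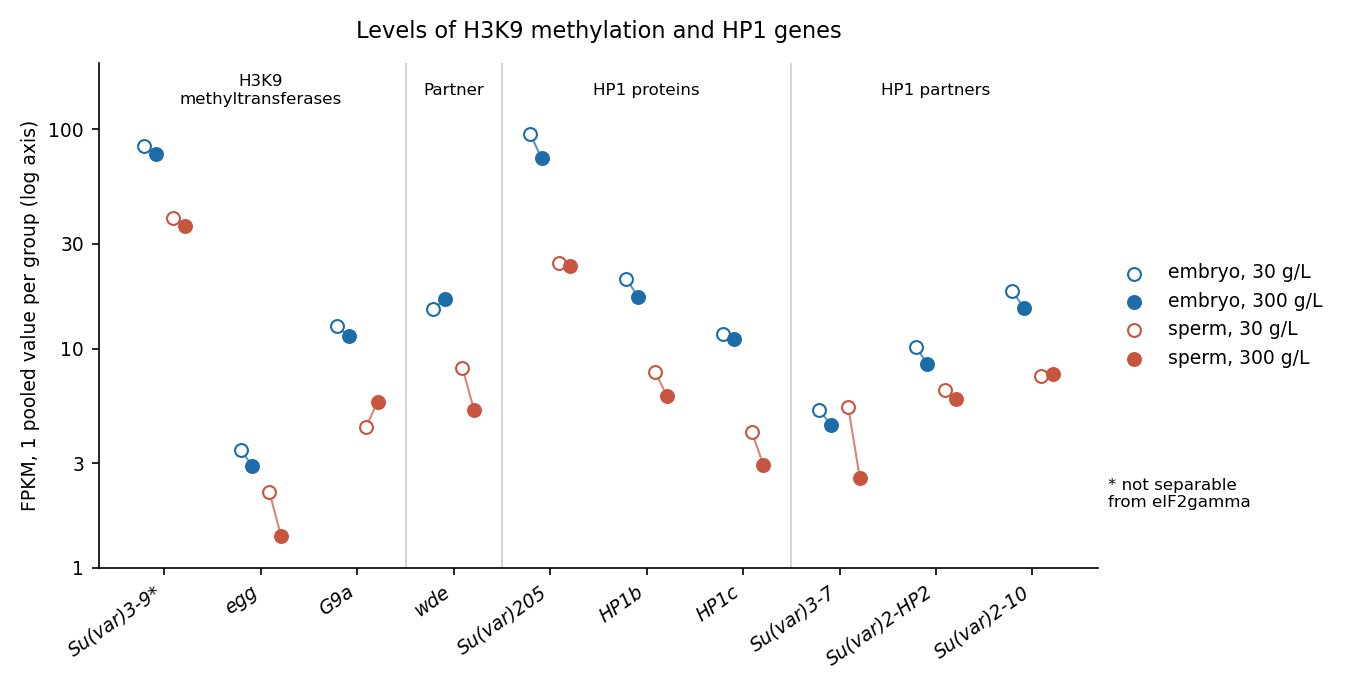
FPKM (log axis) of the 10 genes in the 4 groups, with open circles for medium sugar (30 g/L) and filled circles for high sugar (300 g/L), 1 pooled value of 2 libraries per group and no error bars. In the embryo table Su(var)205 and the Su(var)3-9 row stood between 74.0 and 95.5 FPKM and the other 8 genes between 2.92 and 20.8 FPKM.

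The embryo comparison asks whether these RNAs differed with the sugar in the father's food. No gene of the 10 was called changed, and 9 of 10 had a somewhat lower value in embryos of high sugar fathers. A gene is called where its Benjamini-Hochberg adjusted p in the authors' deposited table is under 0.05. Of the 10 tested genes 0 were called in either direction, against 0.807% of 10163 tested genes (0.708% higher and 0.0984% lower), so 0 of 10 lies near the background. The adjusted p of each of the 10 was 0.999 in the authors' deposited table of Cuffdiff results. At an unadjusted p under 0.05 also 0 of the 10 passed, against 3.34% of tested genes. These are whole animals, so fewer cells with a transcript and less transcript per cell cannot be told apart.

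Ratios below are high over medium sugar, and log2 ratios use FPKM plus 0.1. The SE of a log2 ratio is the one that the authors' test statistic implies, the log2 ratio of the FPKM divided by the statistic. The sources used here do not state this reading of the statistic. Among the HP1 genes, Su(var)205 had the largest difference of the 10 in embryos, a ratio of 0.775 and a log2 ratio of -0.37 (implied SE 0.44, p = 0.167 unadjusted in the authors' deposited table). Of all tested embryo genes, 19.8% had a larger absolute log2 ratio. The ratios of HP1b and HP1c were 0.824 and 0.944, with log2 ratios of -0.28 (implied SE 0.49) and -0.08 (implied SE 0.57). All 3 HP1 genes were lower in the high sugar group, each by less than its implied SE.

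The methyltransferase rows had ratios between 0.845 (egg) and 0.924 (the combined Su(var)3-9 row). The log2 ratio of egg was -0.23 (implied SE 0.51) and that of G9a -0.16 (implied SE 0.40). wde was the single gene with a higher value in the high sugar group, a ratio of 1.11 and a log2 ratio of 0.15 (implied SE 0.42). The partners Su(var)2-HP2, Su(var)2-10 and Su(var)3-7 had ratios of 0.831, 0.834 and 0.856, with log2 ratios of -0.26, -0.26 and -0.22. In all 10 genes the absolute log2 ratio was smaller than the implied SE. This rests on the reading of the statistic: an SE implied by the unadjusted p of the authors' deposited table would be smaller than the log2 ratio in 2 of the 10, Su(var)205 and Su(var)2-HP2.

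The median log2 ratio of the 10 was -0.23, which is a ratio of 0.854, and that of all tested embryo genes was -0.04. Below 0 were 9 of the 10 and 56.6% of all tested genes. When ratios were centred on genes with a mean of at least 10 FPKM, whose median was -0.04, the median of the 10 was -0.19 and 9 of 10 stayed below 0. These counts describe the pooled values, and since the genes of one sample share its libraries, they are not independent of each other. Some markers of other cells and of developmental stage moved with the same contrast. Of the larval cuticle markers 11 of 11 were called higher in the authors' deposited table, against 0.708% of all tested genes. Their median log2 ratio was 3.60, and they summed to 478 FPKM in embryos of medium sugar fathers and 1757 FPKM in embryos of high sugar fathers. The list holds only called genes, so this count does not describe cuticle genes at large. Cuticle genes outside it that were not called include TwdlW (log2 ratio 1.017) and Lcp3 (-0.485). Of the maternal and germline markers 6 of 11 tested were called lower in the authors' deposited table, against 0.0984% of all tested genes. The 12 markers summed to 157 and 113 FPKM, with large falls in CycB (28.1 and 8.97 FPKM) and cdc2 (34.4 and 20.8 FPKM). They did not all fall: gcl, the most abundant, had 58.6 and 68.4 FPKM, and nos and pgc were also higher. At 1 FPKM or more 8 of 10 were below 0. Both lists were written with earlier results of these data known, and their part in the values of the H3K9 and HP1 genes was not tested.

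**Figure D3:**
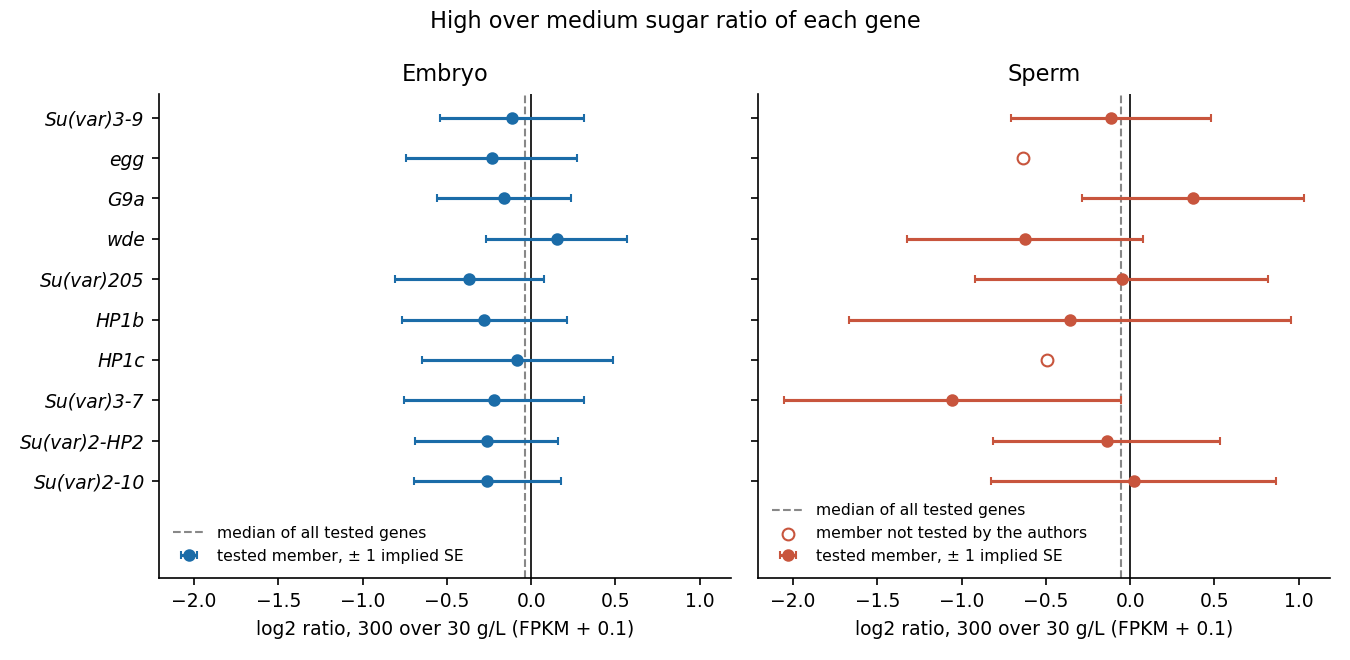
log2 ratio of high over medium sugar for each of the 10 genes in embryos and sperm. Bars are 1 implied SE on either side, open circles are genes the authors did not test, and the dashed line is the median of all tested genes. In embryos 9 of 10 points lie below 0 and every bar crosses 0, and in sperm the bar of Su(var)3-7 alone stays below 0.

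The size of difference the test could call bears on the count of 0. Among tested embryo genes between the lowest and highest mean FPKM of the 10 (3.19 to 84.7), 51 of 7044 were called. The smallest absolute log2 ratio of a called gene in that range that was above 0 in both groups was 1.05, and 108 genes with an absolute log2 ratio of 1 or more were not called. Over all levels the called gene nearest to a ratio of 1 was Unc-89, a giant muscle protein, with 1.51 and 2.98 FPKM (ratio 1.97, adjusted p = 0.0299 in the authors' deposited table). The largest absolute log2 ratio of the 10 was 0.37. Differences of this size were not detectable in these pools, and their absence is not shown. The median implied SE was 0.44 over the 10 genes and 0.51 over all tested embryo genes.

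**Figure D4:**
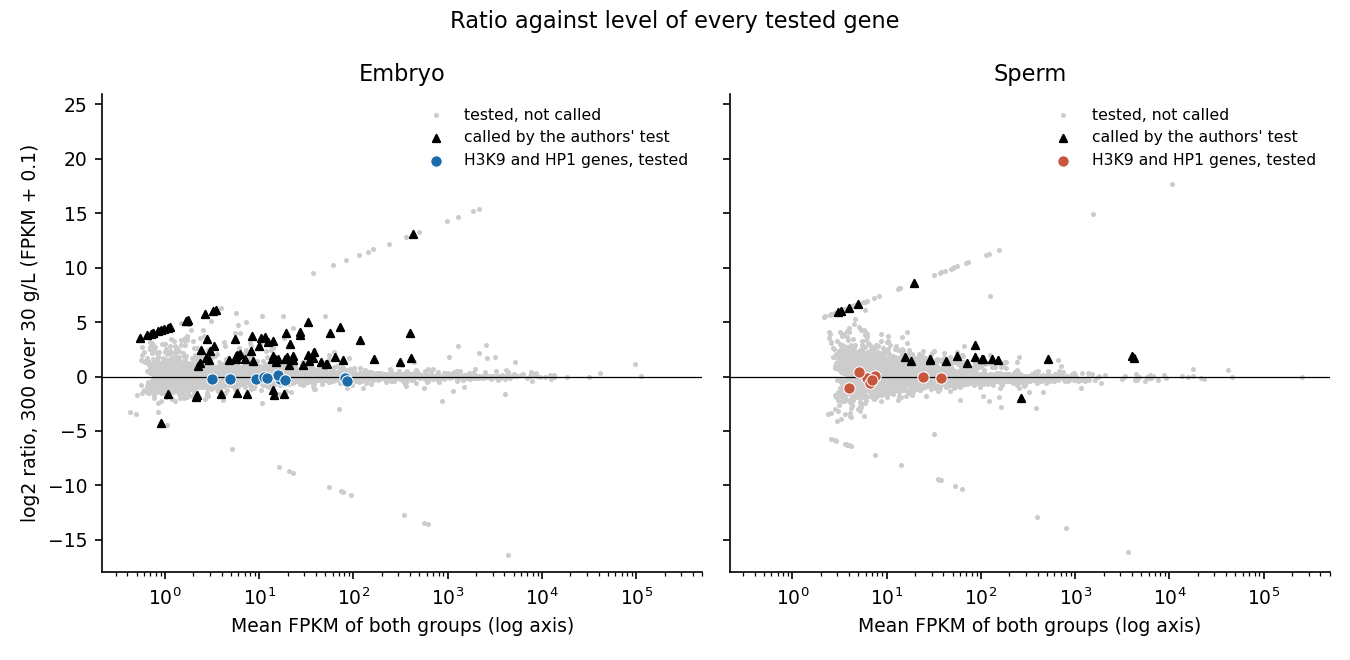
log2 ratio of high over medium sugar against mean FPKM (log axis) of every gene the authors tested, with called genes as triangles and the H3K9 and HP1 genes as large circles. Points on the outer diagonals are genes listed at 0 in one group. The large circles lie between -0.37 and 0.15 in embryos and between -1.05 and 0.37 in sperm, inside the cloud of genes that were not called.

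In the sperm table the combined Su(var)3-9 row was the highest of the 10, with 39.3 and 36.4 FPKM in medium and high sugar sperm, and Su(var)205 had 24.7 and 23.8 FPKM. Neither was called. The other 8 genes had between 1.39 and 8.16 FPKM. wde had 8.16 and 5.26 FPKM, HP1b 7.81 and 6.07 FPKM and HP1c 4.17 and 2.94 FPKM. Su(var)2-10 and Su(var)2-HP2 had 7.53 and 7.63 FPKM and 6.47 and 5.87 FPKM. egg was again lowest, with 2.21 and 1.39 FPKM.

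The sperm comparison asks whether these RNAs differed with the food of the males themselves. Of the 8 tested genes 0 were called, against 0.341% of 6453 tested genes (0.325% higher and 0.0155% lower), and HP1c and egg were marked as not tested. At an unadjusted p under 0.05 also 0 of 8 passed in the authors' deposited table of Cuffdiff results, against 3.95% of tested genes. The adjusted p of each of the 8 was 0.996 in the authors' deposited table. Of all 10 genes 8 had a lower value in the high sugar group, against 55.1% of all tested genes. The median log2 ratio of the 10 was -0.25. Over the 8 tested genes it was -0.13, with 6 below 0, against -0.05 over all tested genes. At 5 FPKM or more it was -0.11, with 5 genes below 0.

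Su(var)3-7 had the largest difference in sperm. Its level was 5.42 FPKM in medium sugar sperm and 2.56 FPKM in high sugar sperm, a ratio of 0.472. Its log2 ratio was -1.05 (implied SE 1.00), and it was not called (unadjusted p = 0.10025 in the authors' deposited table). The overlapping antisense neighbour CG8449 had 3.77 and 5.47 FPKM, the opposite order. For wde the ratio was 0.645 (log2 ratio -0.62, implied SE 0.70, unadjusted p = 0.15035 in the authors' deposited table). G9a was higher in the high sugar group, with 4.39 and 5.71 FPKM (ratio 1.30, log2 ratio 0.37, implied SE 0.66).

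HP1b in sperm had a ratio of 0.777 with an implied SE of 1.31 on the log2 scale, the widest of all. For the untested HP1c and egg the ratios were 0.703 and 0.629. The neighbour that shares the locus of HP1c, CG17141, had 0.521 and 3.23 FPKM in sperm, also not tested. The log2 ratio of Su(var)205 was -0.05 and came to 0.03 when centred on genes with a mean of at least 10 FPKM, whose median was -0.08, so its direction depends on the scaling. With that scaling 7 of the 10 were below 0.

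Called sperm genes differed by more than any of the 10. The called gene nearest to a ratio of 1 was CG5089, with 41.5 and 99.9 FPKM (ratio 2.41, adjusted p = 0.0314 in the authors' deposited table). Recomputing the Benjamini-Hochberg adjustment over the 6453 tested sperm genes gave 16 calls (0.248%) in place of the deposited 22 and an adjusted p of 0.0849 for CG5089. The nearest gene still called was S-Lap1, a sperm leucyl aminopeptidase, with 77.4 and 229 FPKM (ratio 2.95). Between 1.803 and 37.8 FPKM, the mean levels of the 10, 9 of 5255 tested genes were called, and 868 genes with an absolute log2 ratio of 1 or more were not. The median implied SE of the tested 8 was 0.77, against 0.44 for the 10 in embryos, and Su(var)3-7 was the single gene of the 8 whose absolute log2 ratio exceeded its implied SE. By the SE that the deposited p would imply, wde exceeded it as well. Spermatid markers summed to 752 and 1741 FPKM in medium and high sugar sperm, with 3 of 14 tested markers called higher in the authors' deposited table, and accessory gland markers summed to 343 and 948 FPKM, with 1 of 8 tested called. That one was Dup99B, a seminal fluid peptide gene named after its value was seen, whose 254 and 778 FPKM made up most of both sums. Like CG5089, Dup99B was called only with the adjustment as deposited and lost its call with the recomputed one. Another accessory gland marker, Acp53Ea, had 28.0 and 8.76 FPKM and was not called. The range of the 15 spermatid markers was 2.69 to 133 FPKM in medium and 4.93 to 264 FPKM in high sugar sperm. Their part in the values of the H3K9 and HP1 genes was not tested.

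Set side by side, 9 of the 10 genes had lower FPKM in sperm than in embryos in the medium sugar groups, and 10 of 10 in the high sugar groups. The tables were scaled separately, so these levels carry no test. The median ratio of sperm over embryo was 0.440 in medium and 0.473 in high sugar, while over 7709 genes at 1 FPKM or more in both tables it was 0.655 and 0.643. Lower in medium sugar sperm were 67.7% of those genes. Su(var)205 had the smallest ratio in the medium sugar groups, 0.258, and Su(var)3-7 the largest, 1.03. A single transcript, CG18628, took up 31.1% of the summed FPKM of medium sugar sperm. Medium sugar sperm values were then divided by the share of that sum left without CG18628. The median of the 10 became 0.639 with 9 of 10 lower, while that of the 7709 genes was 0.950 with 51.8% lower. This scaling is rough: embryo values were not rescaled, and a share of summed FPKM is not a share of fragments.

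Positions among genes above 0 do not depend on that scale, but they depend on the number of such genes. It was 12740 in medium sugar embryos and 10459 in medium sugar sperm, so the same rank gives a lower position in sperm. Positions were lower in sperm for 9 of the 10, and the share over all genes was not computed. G9a went from percentile 67.1 in medium sugar embryos to 43.0 in medium sugar sperm, HP1c from 65.2 to 41.8 and HP1b from 76.9 to 58.7. Su(var)205 stood at 93.7 and 83.0. Su(var)3-7 alone was slightly higher in sperm, at 48.6 against 47.2. In 7 of the 10 genes the high over medium sugar ratio was on the same side of 1 in embryos and sperm. The share of all genes with such agreement was not computed, so this count has no background beside it. Of all tested genes 56.6% in embryos and 55.1% in sperm were below a ratio of 1. G9a and Su(var)2-10 were lower in embryos and higher in sperm of the high sugar groups and wde the reverse, a difference that could not be tested with 1 value per group.

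Other genes of the heterochromatin pathway were taken from 6 lists with 42 genes in all. In embryos all 42 were tested and 0 were called, against 0.807% of all tested genes. In sperm 0 of 26 tested were called, against 0.341%, so both counts lie near the background. At 1 FPKM or more 30 of 41 embryo genes were below 0 with a median log2 ratio of -0.14, and 25 of 33 sperm genes with a median of -0.16. Of all tested genes, at any level, 56.6% in embryos and 55.1% in sperm were below 0. The 33 sperm genes include some that the authors did not test. By the unadjusted p of the authors' deposited Cuffdiff results, 1 embryo gene and 0 sperm genes were under 0.05, against 3.34% and 3.95% of all tested genes, so this count lies near the background. The gene was Caf1, the histone-binding subunit of several chromatin complexes, named after its value was seen. It had 33.5 and 23.0 FPKM in embryos (p = 0.0372 unadjusted in the authors' deposited table). In sperm Caf1 had 14.2 and 7.06 FPKM (p = 0.0679 unadjusted in the authors' deposited table).

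The further HP1 family members are mostly germline proteins. In embryos rhi, the HP1 protein of piRNA clusters in the ovary, had 15.8 and 10.1 FPKM, and HP6, also called Umbrea, 7.42 and 6.79 FPKM, and neither was called. In sperm rhi and HP1e, a testis HP1 protein in the fly, were listed at 0 in both groups. HP6 and CG14193 were listed at 0 in medium and had 0.867 and 0.605 FPKM in high sugar sperm. A listed 0 does not show that a transcript is absent, since the table has no fragment counts and also lists mod(mdg4), a broadly used chromatin gene at 5.49 and 4.33 FPKM in embryos, at 0 in both sperm groups.

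Among 11 other HP1 partners 9 were below 0 in embryos, with a median of -0.15, and 7 of 10 in sperm, with a median of -0.13. HP4, an HP1a-interacting protein, had the highest level in embryos, 58.7 and 52.0 FPKM, and row, the partner of HP1c, followed with 17.4 and 15.9 FPKM. In sperm row had 9.603 and 9.08 FPKM and CG3680 9.51 and 9.49 FPKM. The genes that oppose the mark had medians of -0.23 in embryos and -0.25 in sperm over 4 genes each. They include JIL-1, a kinase of the neighbouring serine of histone H3, at 14.5 and 14.8 FPKM in embryos and 7.94 and 7.44 FPKM in sperm. JHDM2, a demethylase, had 9.62 and 8.72 FPKM in embryos, and Kdm4B, another, 13.8 and 10.4 FPKM in sperm.

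Deacetylation and other Su(var) genes had medians of -0.22 in embryos (8 of 9 below 0) and -0.25 in sperm (6 of 7). Pp1-87B, a phosphatase known also as Su(var)3-6, had 94.9 and 91.9 FPKM in embryos and 44.4 and 34.3 FPKM in sperm. Parp had 46.1 and 51.4 FPKM in embryos and 21.6 and 21.0 FPKM in sperm. The SUMO pathway had medians of -0.13 and -0.21. Its most abundant genes were smt3, which encodes SUMO, at 380 and 335 FPKM in embryos and 64.7 and 56.4 FPKM in sperm, and lwr, the conjugating enzyme, at 30.7 and 30.9 FPKM in embryos and 19.7 and 16.5 FPKM in sperm.

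Genes of small RNA silencing had a median above 0 in embryos, 0.09 over 8 genes, with 3 below 0. The abundant members were those of the siRNA pathway, with vig at 59.5 and 68.3 FPKM and AGO2 at 41.5 and 44.6 FPKM. piwi, which directs H3K9 methylation in the germline, had 3.70 and 2.78 FPKM. In sperm AGO2 had 44.9 and 42.0 FPKM and vig2 24.3 and 21.6 FPKM, and the median of the list was -0.07, which came to 0.01 when scaled to genes at 10 FPKM or more.

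The other chromatin systems are given beside these values, and no difference between lists was tested. PRC2, which methylates lysine 27 of histone H3, PRC1 with the Pho complex, and the trithorax activators had embryo medians of -0.10, -0.11 and -0.16. Together 28 of 33 of these genes were below 0 in embryos, against 56.6% of all tested genes, with 0 called against 0.807%. In sperm their medians were 0.22, -0.04 and 0.17, and 12 of 32 were below 0, against 55.1% of all tested genes. The 32 include genes the authors did not test, so the sets are unlike. Again 0 were called of 22 tested, against 0.341%. The sign of the PRC1 median turned to 0.04 when scaled to genes at 10 FPKM or more. Among the most abundant were pho (60.9 and 58.4 FPKM), kis (45.4 and 41.7 FPKM) and Trl (36.7 and 34.0 FPKM) in embryos and kis (32.1 and 30.0 FPKM), pho (21.5 and 19.7 FPKM) and trx (17.9 and 20.0 FPKM) in sperm. In PRC2 they were jing (12.02 and 9.74 FPKM) and E(z), its methyltransferase (7.90 and 7.34 FPKM), in embryos, and E(z) (14.4 and 16.7 FPKM) and jing (7.002 and 7.03 FPKM) in sperm. After pho, the most abundant of the PRC1 and Pho complex genes was Su(z)2 in embryos (12.3 and 10.5 FPKM) and Scm in sperm (10.3 and 10.1 FPKM).

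**Figure D5:**
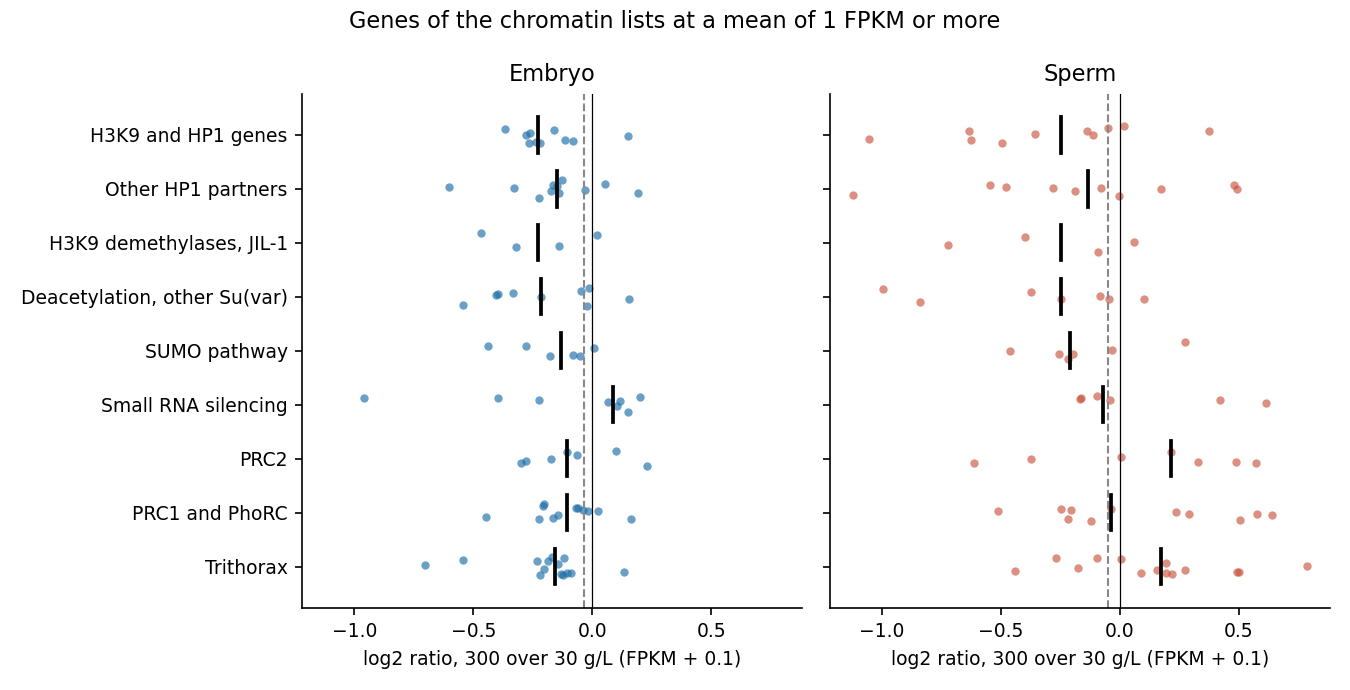
log2 ratio of high over medium sugar of each gene at a mean of 1 FPKM or more, by list, in embryos and sperm, with black bars for list medians, the dashed line for all tested genes and vertical scatter for legibility only. The H3K9 and HP1 genes have medians of -0.23 and -0.25, and trithorax genes of -0.16 in embryos and 0.17 in sperm. The other HP1 family members are not drawn, since none reached 1 FPKM in sperm.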

How the data were processed

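Per the labels' protocols, Trizol-extracted total RNA went through ribosomal RNA removal and a stranded library kit. The submitters' processing notes name TopHat2 2.0.8, Cuffdiff 2.1.1 and the build BDGP5, and the sources used here give neither annotation nor options. Per the file headers, the deposited values are FPKM, 1 per gene and group. The deposited test statistic (a score per gene), p-value and adjusted p-value are the authors' own. Recomputed Benjamini-Hochberg values equalled the deposited ones for embryos but not for sperm (0.0202 against 0.00749 at the smallest p, and 16 against 22 calls). Log2 ratios were computed from FPKM with a pseudocount of 0.1, which understates the change of low genes. Ratios of single genes were computed without it. Lists were summarised over genes averaging 1 FPKM or more, whether or not the authors had tested them. Of the columns with values per sample, 0 were left unused. No test was refitted, since no value per library was used. How the authors' p-values take in the spread between libraries is not given, and that spread may be technical. Functions were tested on simulated data. Python 3.11.15, pandas 2.3.3 and matplotlib 3.10.9 were used.

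The genes, lists and tests were chosen with earlier results of these data known. Named are all 10 genes, the called genes of each pathway list or, with none called, its 2 most abundant, genes sharing a locus, and the called gene nearest to a ratio of 1 in each tissue. The text says where others were named after their values were seen, and piwi, HP1e, Mhc and CG18628 are also of that kind, as are the marker genes. List symbols were matched by name or, through BDGP6 identifiers, by ID, and the start of each locus, counted from 0 in the tables, was raised by 1. BDGP6 served only for lengths, overlaps and gaps. Alternatives were other thresholds, adjustments, pseudocounts, filters, a centring and subsets of the genes.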

Additional observations from a re-analysis of the deposited data

How the results depend on the processing

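The count of called genes among the 10 was 0 in embryos and 0 in sperm at adjusted p thresholds of 0.01 and 0.1, with the adjustment recomputed, at an unadjusted p under 0.05, with a minimum absolute log2 ratio of 1 and over genes at 1 FPKM or more. Both adjusted thresholds and the minimum log2 ratio could only return 0, given the deposited adjusted p-values, so they add no support. The embryo median log2 ratio lay between -0.23 and -0.19 under its 8 alternatives, and the number of genes below 0 between 6 and 9 as the number of genes considered varied. In sperm the median of -0.25 came to -0.11 over genes at 5 FPKM or more (5 genes below 0), to -0.14 without the 3 genes that share a locus (5 genes below 0), and, in alternatives chosen after seeing the data, to -0.13 without the 2 untested genes and to -0.36 without the Su(var)3-9 row. These alternatives consider fewer genes. A shift of over 0.1 on the log2 scale was taken as a move. None of these counts and medians of the 10 genes changed direction. With centring on genes at 10 FPKM or more, the sperm value of Su(var)205 and the sperm medians of the PRC1 and small RNA lists did, with values of 0.03, 0.04 and 0.01. No paired analysis was possible because both tables hold 1 pooled value per group, and for the same reason no library was left out. Depth is unknown, so no counting error is given.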

Other observations

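The deposited p-values are not the normal tail of the deposited test statistics. For Su(var)205 in embryos the statistic of -0.830 would give a two-sided normal p of 0.407, and the authors' deposited table gives 0.167. For Su(var)3-7 in sperm the statistic of -1.09 would give 0.278, and the authors' deposited table gives 0.10025. An SE implied by the statistic is therefore wider than one that the p-value would imply.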
